A study of Mus musculus with 6 samples.

Results

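The Clcn5 intron cluster, a group of X-linked miRNAs, gave 10 rows in the miRNA table, the mature 5p and 3p arms of miR-500, miR-501, miR-362, miR-188 and miR-532, measured in 6 small RNA libraries. They are 10 of the 1522 rows of the table, and all 10 passed the filter of at least 1 RPM (the tags of a miRNA scaled to 1 fixed total per library) in 3 libraries, as did 649 rows in all. The cells were labelled as neural stem cells, which divide and give rise to neurons and glia, and were taken with a tissue dissociation kit from the hippocampus of C57BL/6J male mice at postnatal day 3. In the GDE group (3 libraries, titled IUGR) the dams had been injected intraperitoneally with DEX, the glucocorticoid dexamethasone, at 1 mg/kg a day between E14.5 and E18.5 (embryonic days). The dams of the Control group (3 libraries, titled Normal) had saline at those times. The design text puts the libraries of a group in independent litters. The members were chosen by their position in a single intron, and the cluster was selected on the RPM of miR-532 in these libraries, so the extreme spread of miR-532 is given as a description with no test.

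A miRNA precursor is a hairpin that is cut into a short duplex. The guide strand is kept by an Argonaute protein and pairs with messenger RNAs mainly through its seed, bases 2 to 8, while the other strand is usually degraded. Precursors that lie close together in an intron are often cut from 1 primary transcript, so their levels can move together, but each hairpin is processed and each strand retained at its own rate. Clcn5, the host gene, encodes a chloride and proton exchanger of endosomes. Of the members, miR-501-3p is known as an activity-regulated repressor of an AMPA receptor subunit in hippocampal neurons, and miR-188-5p as a repressor of neuropilin-2 in dendritic spines.

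The 5 precursors lie on the minus strand of chromosome X between 7237683 and 7248497 (GRCm38), a span of 10815 bases. All 5 fall inside Clcn5 (7153810 to 7319358, minus strand). GENCODE M21 lists 5 Clcn5 transcripts, of which 3 span the cluster, and each precursor is intronic in those 3 and overlaps no exon. In the direction of transcription the order is Mir532 (7248402 to 7248497), Mir188 (7247989 to 7248056), Mir362 (7241982 to 7242046), Mir501 (7241243 to 7241351) and Mir500 (7237683 to 7237774). Mir532 and Mir188 are separated by 345 bases and Mir362 and Mir501 by 630 bases, while 5942 bases lie between Mir188 and Mir362 and 3468 between Mir501 and Mir500.

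The mature sequences show which members could pair with the same targets and which are near copies of each other in the count table. Of the 10 members, 9 matched a mature entry of RefSeq (GRCm38.p6), printed 5′ to 3′ with the seed in capitals, and all 5 hairpins matched.
mmu-miR-500-5p: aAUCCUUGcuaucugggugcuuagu
mmu-miR-362-5p: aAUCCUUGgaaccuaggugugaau
mmu-miR-501-5p: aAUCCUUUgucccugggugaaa
mmu-miR-500-3p: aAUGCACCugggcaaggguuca
mmu-miR-501-3p: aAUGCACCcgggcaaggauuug
mmu-miR-362-3p: aACACACCuguucaaggauuca
mmu-miR-188-5p: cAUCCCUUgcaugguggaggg
mmu-miR-188-3p: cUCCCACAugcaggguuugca
mmu-miR-532-3p: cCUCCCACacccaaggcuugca
The hairpin of Mir532 is printed because both of its rows switch between levels; its capitals mark the 3p arm.
Mir532: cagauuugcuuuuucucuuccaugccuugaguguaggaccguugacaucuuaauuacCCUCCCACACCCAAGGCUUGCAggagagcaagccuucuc

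The 9 sequences held 7 seeds. miR-362-5p and miR-500-5p shared AUCCUUG, and miR-501-5p began with the same 7 bases as both. miR-500-3p and miR-501-3p shared AUGCACC and were identical at 18 of 22 positions, differing by U9C, G18A, C21U and A22G (the base of miR-500-3p first, positions counted from 1 at the 5′ end). miR-362-3p and miR-500-3p were identical at 17 of 22 positions. The 3p arms of the neighbours Mir188 and Mir532 shared an 8-base run, CUCCCACA, from base 1 of miR-188-3p and from base 2 of miR-532-3p. With 4 differences over 22 bases, how reads with errors were split between miR-500-3p and miR-501-3p is not given in the sources used here. No member carried exactly the values of another row. Outside the cluster, miR-329-3p of chromosome 12 had the seed ACACACC of miR-362-3p and lay at a like level, 5.34, 3.56 and 4.54 RPM in GDE and 6.32, 4.04 and 7.57 RPM in Control. miR-7061-3p had the seed of miR-188-5p and reached at most 0.085 RPM.

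The depth recovered from the step between values was about 11751000 to 12385000 tags a library. Rows of the table held 2927136 to 3343808 of them, and 1 tag was worth 0.0807 to 0.0851 RPM. A mature miRNA is read whole, so RPM of different members can be set side by side without a length scaling, although the ligation of adaptors can favour some ends over others. As a check of the cell label, miR-9-5p, a miRNA of neural progenitors, stood at 8154 to 8831 RPM, and the 5 neural stem and progenitor miRNAs summed to 19508 to 21165 RPM in GDE and 20633 to 21949 RPM in Control. Markers of other cells were present too. The 5 neuron miRNAs, of which miR-124-3p is also on the progenitor list, summed to 2134 to 2536 RPM (GDE) and 2293 to 2425 RPM (Control), with miR-129-5p at 683 to 1076 RPM. The 5 leukocyte and microglia miRNAs summed to 409 to 573 RPM in GDE and 223 to 370 RPM in Control, although miR-142a-5p was at 0 in Control replicate 1. Of these 5, only miR-155-5p had a negative log2 fold of GDE over Control (-0.25). The 4 choroid plexus and ciliated-cell miRNAs summed to 1303 to 1684 RPM in GDE and 1116 to 1288 RPM in Control. Among these 4, miR-34c-5p alone had a negative log2 fold (-0.25). The 4 endothelial and mural miRNAs summed to 340 to 559 and 316 to 409 RPM, and the 4 erythroid miRNAs to 73.9 to 93.6 and 35.0 to 69.1 RPM. The 3 oligodendrocyte miRNAs summed to 210 to 264 RPM in GDE and 160 to 235 RPM in Control. No tested miRNA on any of these lists had an adjusted p under 0.05 in the limma comparison of the groups. Among all tested rows, 14.6% had groups that did not overlap. The part of these cell types in the levels of the cluster was not tested. In bulk RNA, fewer cells of a type and less RNA per cell cannot be told apart. GDE replicate 3 had the lowest sum over the table, and 32.0% of the 649 tested rows were at their lowest there, while 41.4% were at their highest in Control replicate 1.

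The dominant arm differed along the cluster. miR-500 and miR-501 were present mainly as their 3p arm, and miR-362 and miR-188 mainly as their 5p arm, in each of the 6 libraries. The order of the median levels was miR-532-5p (1049 RPM), miR-501-3p (338 RPM), miR-188-5p (119 RPM), miR-362-5p (97.6 RPM) and miR-500-3p (70.9 RPM). miR-532-3p followed with 16.2 RPM, then miR-188-3p (7.71 RPM), miR-362-3p (4.59 RPM), miR-500-5p (3.82 RPM) and miR-501-5p (2.19 RPM). The range of miR-532-5p over the libraries, 4.04 to 2431 RPM, covered those of miR-501-3p, miR-188-5p, miR-362-5p and miR-500-3p, so its place at the top of the order was set by 3 libraries. Among the other 8 members, miR-501-3p (205 to 389 RPM) and miR-188-5p (110 to 156 RPM) each lay above the next in all libraries. The ranges of miR-362-5p (83.7 to 101 RPM) and miR-500-3p (43.6 to 95.7 RPM) overlapped. So did, each with the next, those of miR-188-3p (6.43 to 10.0 RPM), miR-362-3p (2.23 to 7.49 RPM), miR-500-5p (2.98 to 6.09 RPM) and miR-501-5p (1.57 to 3.22 RPM). Compared within each library, miR-188-3p was nevertheless above miR-362-3p, and miR-500-5p above miR-501-5p, in all 6 libraries.

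**Figure D1:**
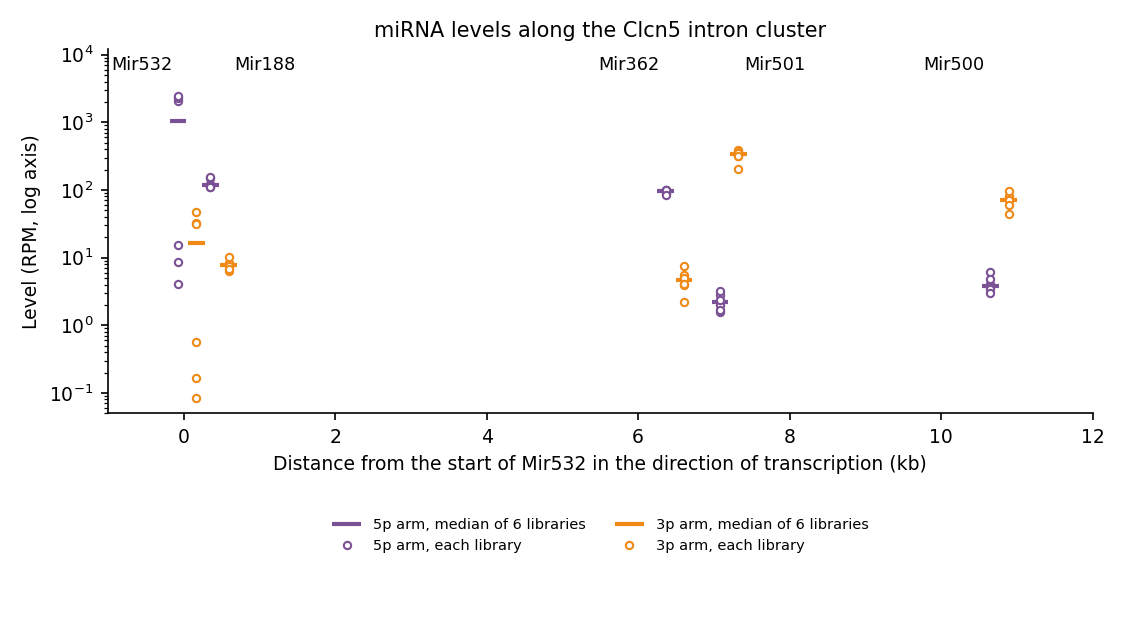
Level of each arm (RPM, log axis) against the distance of its precursor from the start of Mir532 in the direction of transcription (kb); open points are the 6 libraries, bars their medians, and the arms of a precursor are drawn side by side for legibility. The 5p arm is the higher one at Mir188 and Mir362 and the 3p arm at Mir501 and Mir500, while each arm of Mir532 runs from a few RPM or less to its high level, 602-fold for 5p and 560-fold for 3p.

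miR-532-5p was either abundant or nearly absent. In GDE it was at 2083, 2292 and 8.66 RPM in replicates 1, 2 and 3, and in Control at 15.2, 4.04 and 2431 RPM. GDE replicates 1 and 2 and Control replicate 3 thus held 24955, 27077 and 28565 tags of it, and the other 3 libraries 105, 183 and 50 tags, with no library in between and both levels present in each group. The highest library held 602 times the level of the lowest (95% counting interval 457 to 811, exact binomial), and both of these libraries were Controls. Within GDE, replicate 2 held 265 times the level of replicate 3 (219 to 324). Such intervals cover only counting error, since tags from PCR without molecular identifiers are not independent molecules.

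miR-532-3p also took a high or a low level, but not in the same libraries. It was at 47.6, 32.6 and 0.165 RPM in GDE and at 31.9, 0.565 and 0.085 RPM in Control. GDE replicates 1 and 2 were high for both arms, and GDE replicate 3 and Control replicate 2 low for both. In the other 2 libraries the arms parted. Control replicate 1 held 384 tags of the 3p arm with 183 of the 5p arm, and Control replicate 3 held 1 tag of the 3p arm with 28565 of the 5p arm. The 560-fold ratio between GDE replicate 1 and Control replicate 3 rests on that 1 tag, with a counting interval of 100 to 22125. Within GDE the ratio of the highest to the lowest library was 288 (79.5 to 2388), from 570 and 2 tags.

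The neighbouring miR-188, whose hairpin lies 345 bases downstream of Mir532 in the same intron, showed no such switch. miR-188-5p was at 123, 150 and 115 RPM in GDE and at 110, 111 and 156 RPM in Control, a highest over lowest ratio of 1.42. Over the 8 members other than miR-532 this ratio lay between 1.21 (miR-362-5p) and 3.36 (miR-362-3p), against a median of 1.98 over all tested rows with no 0. The 3 libraries with much miR-532-5p were also the 3 highest for miR-188-5p, at a far smaller amplitude (up to 156 RPM, against 110 to 115 RPM in the others). The same held for miR-188-3p and for miR-501-5p, which lies farther along the intron. It did not hold for the arms of miR-362 and miR-500 or for miR-501-3p. How often it held over all tested rows was not counted.

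Rows with so wide a range over the libraries were rare in the table. Among the 308 tested rows that reached 20 RPM, 4 had a highest library at 30 or more times the lowest, or a library at 0, which is 1.30% of them, and 2 of these 4 were the arms of miR-532. These limits were set after the values were seen, and the rule that chose the cluster used these values, so the share is a description. The others were miR-297c-5p and miR-744-5p. miR-297c-5p had 136 to 200 RPM in the GDE libraries and at most 0.083 RPM in those of Control, a split between the groups and not within them as for miR-532. miR-744-5p was at 149 RPM in GDE replicate 3, 230 RPM in Control replicate 3 and 1.70 to 4.92 RPM in the other 4 libraries. miR-744-5p was thus high in GDE replicate 3 and Control replicate 3, and only the second of these was also high for miR-532-5p. The within-group SD of log2(RPM + 1) was 4.63 for miR-532-5p, the widest of the 649 tested rows, and 2.84 for miR-532-3p, the third widest, with a median of 0.28 over all of them. For miR-362-5p it was 0.11, and 7.09% of the tested rows had a smaller one.

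**Figure D2:**
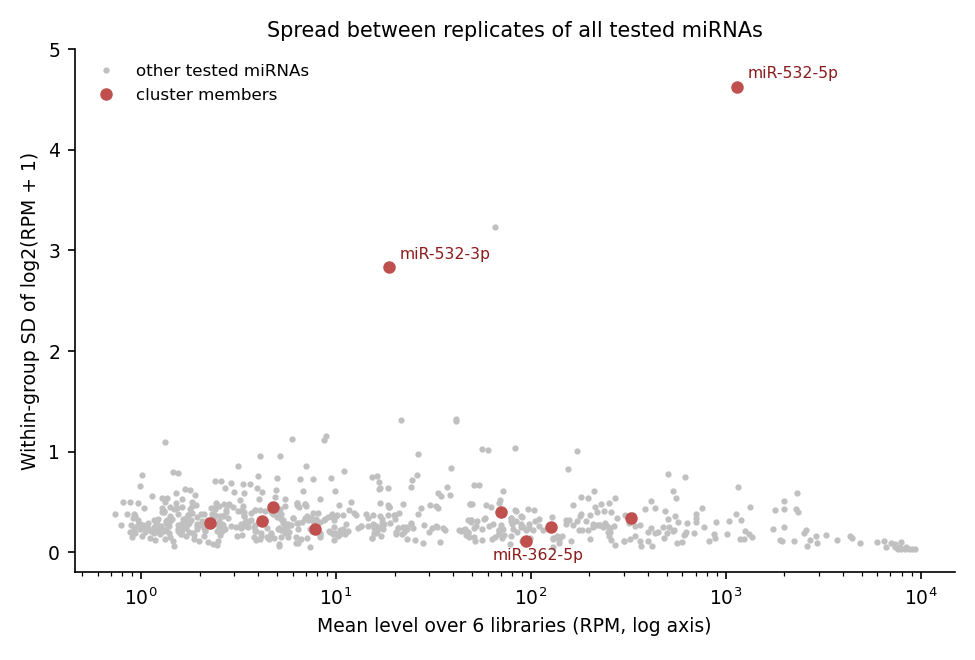
Within-group SD of log2(RPM + 1) of every tested miRNA against its mean level over 6 libraries (RPM, log axis); red points are the 10 members, grey points the other rows. The arms of miR-532 stand at 4.63 and 2.84, while the other 8 members lie among the remaining rows.

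GDE and Control were then compared for each member, to ask whether dexamethasone given to the dam was followed by another level in the offspring cells. No member passed the threshold. In limma, fitted over all 649 tested rows with Benjamini-Hochberg adjustment, 0 of the 10 members had an adjusted p under 0.05 and 0 an unadjusted p under 0.05, and their adjusted p ran from 0.668 to 0.984. Over all tested rows 2 passed, or 0.308%. The groups overlapped for all 10 members. Over all tested rows they did not overlap for 95, or 14.6%, and with only 10 members a count of 0 lies near that share. Of the 10 log2 folds of GDE over Control, 6 were positive and 4 negative with a median of 0.06. Over all 649 tested rows 252 were positive and 397 negative, with a median of -0.07. As single libraries were left out, between 5 and 9 of the 10 member folds were positive.

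Both arms of miR-532 had large folds with wide errors. The mean of miR-532-5p was 1461 ± 1262 RPM in the GDE libraries and 817 ± 1398 RPM in the Control libraries (mean ± SD, n = 3 each, as for all such values here), a log2 fold of 2.62 with a 95% interval of -3.61 to 8.86 on the log2(RPM + 1) scale (limma, adjusted p = 0.787; exact two-sided permutation p = 0.70). Its GDE mean stood above that of Control because 2 of the 3 GDE libraries and 1 of the 3 Control libraries were at the high level. Leaving out single libraries gave log2 folds from 0.85 (without Control replicate 2) to 5.31 (without Control replicate 3). On the recovered tags of all 6 libraries the log2 fold was 0.84 in edgeR and 0.82 in DESeq2, which compare mean levels and not means of logs as limma does. The mean of miR-532-3p was 26.8 ± 24.2 RPM in the GDE libraries and 10.9 ± 18.2 RPM in the Control libraries, a log2 fold of 1.70 with an interval of -2.14 to 5.53 (limma, adjusted p = 0.784; exact permutation p = 0.400). It was 0.71 without GDE replicate 1 and 3.40 without GDE replicate 3. With 3 against 3 libraries the exact test cannot go below 0.1.

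The other major strands lay close together in the groups. miR-501-3p was at 389, 320 and 205 RPM in GDE replicates 1 to 3 and at 361, 355 and 320 RPM in Control. GDE replicate 3 was the lowest library, and the highest was also a GDE one. The log2 fold was -0.23 (interval -0.79 to 0.34; limma, adjusted p = 0.801), and without GDE replicate 3 it was 0.03. miR-500-3p, with the same seed, was at 82.0, 70.3 and 43.6 RPM in GDE and at 71.6, 60.2 and 95.7 RPM in Control. Its log2 fold was -0.24 (interval -0.93 to 0.46; limma, adjusted p = 0.854), and it too was 0.03 without GDE replicate 3. miR-188-5p had means of 130 ± 18.2 (GDE) and 125 ± 26.6 RPM (Control), a log2 fold of 0.06 (interval -0.46 to 0.58; limma, adjusted p = 0.984). miR-362-5p, the steadiest member, was at 100, 101 and 89.3 RPM in GDE and at 97.2, 98.1 and 83.7 RPM in Control, with replicate 3 the lowest in each group. Its log2 fold was 0.06 (interval -0.38 to 0.50; limma, adjusted p = 0.970). For these 4 strands a change of more than about 1 log2 unit in either direction lies outside the interval.

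The minor strands rested on few tags. miR-362-3p was at 3.92, 5.59 and 2.23 RPM in GDE and at 5.07, 4.12 and 7.49 RPM in Control, from 27 to 88 tags a library. It had the lowest adjusted p of the 10 members, with a log2 fold of -0.44 (interval -1.17 to 0.28; limma, adjusted p = 0.668; exact permutation p = 0.400), which ran from -0.69 to -0.17 as single libraries were left out. The GDE mean of miR-188-3p was 7.58 ± 1.00 RPM and its Control mean 8.05 ± 1.76 RPM, from 78 to 118 tags, with a log2 fold of -0.07. miR-500-5p was at 4.01, 6.09 and 3.63 RPM in GDE and at 4.90, 3.39 and 2.98 RPM in Control, a log2 fold of 0.22 (0.04 to 0.39 without single libraries) from 35 to 72 tags. miR-501-5p, the least abundant member, was at 2.75, 3.22 and 1.57 RPM in GDE and at 2.00, 1.70 and 2.38 RPM in Control, a log2 fold of 0.19 (0.04 to 0.40 without single libraries) from 19 to 38 tags. Its 3 Control libraries, at 24, 21 and 28 tags, had a variance of 0.507 times their mean, no more than counting alone gives. Its 3 GDE libraries, at 33, 38 and 19 tags, had a variance of 3.23 times their mean. For miR-188-3p, miR-362-3p and miR-500-5p this ratio ran from 1.34 to 8.15 over the groups.

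**Figure D3:**
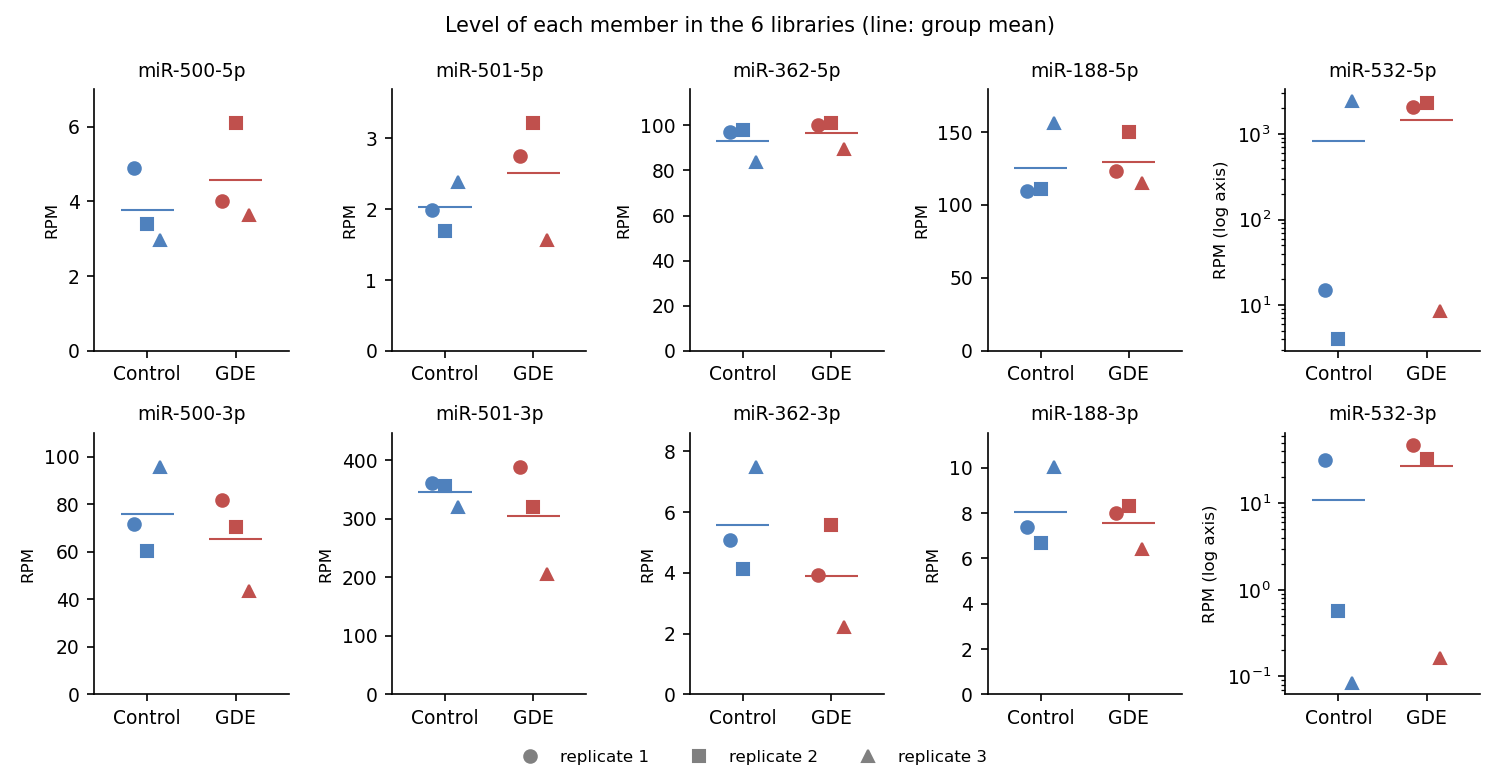
Level of each member (RPM; log axis for miR-532, axes from 0 for the others) in the Control and GDE libraries, with symbols for the replicate number and lines for the group means. The groups overlap in every panel, and only the arms of miR-532 split into a high and a low level within a group.

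The sum of the cluster followed miR-532-5p. The 10 members summed to 2844, 2989 and 476 RPM in GDE and to 706, 645 and 3109 RPM in Control, from 0.197% of the table in GDE replicate 3 upward. miR-532-5p made up 73.3%, 76.7% and 1.82% of the cluster in the GDE libraries and 2.16%, 0.626% and 78.2% in the Control libraries. The log2 ratio of the group means of this sum was 0.50, and it moved between 0.14 and 1.64 as single libraries were left out. Without both arms of miR-532 the sums were 713, 665 and 467 RPM in GDE and 658, 640 and 678 RPM in Control. The log2 ratio of their means was -0.10, and GDE replicate 3 lay below all the others. In that library 5 of the 10 members were at their lowest, as were 32.0% of all tested rows. miR-501-3p alone gave 43.9% to 55.5% of this sum in a library.

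Arm use was compared because the strands of a hairpin are cut from it together, so their ratio does not directly follow how much of the primary transcript was made. The 3p arm held 93.2% ± 1.84 of the tags of miR-500 in GDE and 95.1% ± 1.73 in Control, and 99.2% ± 0.154 and 99.4% ± 0.136 of those of miR-501. For miR-362 it held 2.43% to 8.22% and for miR-188 5.24% to 6.33%. For miR-532 the share of the 3p arm was 2.23% (95% exact binomial interval 2.06% to 2.42%), 1.40% (1.27% to 1.55%) and 1.87% (0.227% to 6.59%) in GDE. In Control it was 67.7% (63.7% to 71.6%), 12.3% (5.08% to 23.7%) and 0.0035% (8.86e-05% to 0.0195%). The 5p arm was thus the major one in 5 of the 6 libraries, and the share rested on only 107 tags of both arms in GDE replicate 3 and 57 in Control replicate 2.

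The log2 of 5p over 3p was tested in limma for the 155 precursors whose arms were both tested. At an adjusted p of 0.05 none passed (0%), while 9 were under 0.05 before adjustment. In the cluster 0 of the 5 precursors passed. The ratio was higher in GDE by 0.46 (SE 0.34) for miR-500, 0.42 (SE 0.22) for miR-501, 0.50 (SE 0.34) for miR-362, 0.12 (SE 0.20) for miR-188 and 0.92 (SE 2.80) for miR-532, with limma adjusted p between 0.740 and 0.965. All 5 differences were positive, beside 49.7% of the 155 precursors, but the groups overlapped for each of them. The 5 precursors share the 6 libraries, so they are not independent, and 4 of 5 were positive without Control replicate 1 or without Control replicate 2.

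**Figure D4:**
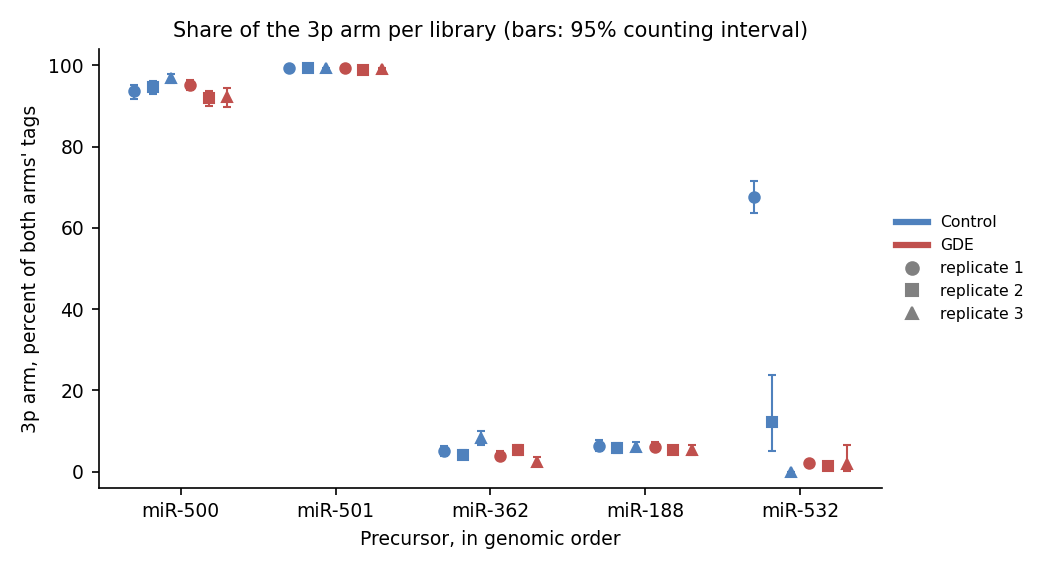
Share of the 3p arm among the tags of both arms (percent) for the 5 precursors in each library, with bars for the 95% exact binomial interval, which covers counting error only. Shares of miR-500, miR-501, miR-362 and miR-188 stay near one end of the axis in all libraries, while those of miR-532 in Control run from 0.0035% to 67.7%.

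Co-variation over the 6 libraries was described by Pearson's r of log2(RPM + 1), with no test, since the cluster was chosen with these values known and all rows share the depth and composition of their library. Over the 45 pairs of members the median r was 0.55, from -0.36 to 0.91, and 37 pairs were positive. Over all 157641 pairs of the 562 tested rows with a miRBase name the median was 0.12, and 58.2% were positive. With the group means removed the medians were 0.61 and 0.14. Without the arms of miR-532 the median over the remaining 28 pairs was 0.53. GDE replicate 3 carried much of this, as the median over the 45 pairs was 0.22 without it, beside 0.09 over all named pairs, and 0.09 over the 28 pairs without miR-532. When each library was rescaled to the same table sum the medians were 0.39 for the members and 0.01 for all named pairs.

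The arms of a hairpin varied together for miR-188 but less or not at all for the others. The arms of a precursor had r = 0.86 for miR-188, but 0.47 for miR-501, 0.38 for miR-532, -0.03 for miR-500 and -0.14 for miR-362. The minor arms of miR-501, miR-500 and miR-362 held 19 to 38, 35 to 72 and 27 to 88 tags a library, and that of miR-188 78 to 118. Counting error in so few tags can lower r, and its part here was not tested. The 10 pairs among the 3p arms were all positive by Pearson's r (0.10 to 0.89), with r = 0.89 for miR-188-3p and miR-500-3p, 0.87 for miR-362-3p and miR-500-3p, and 0.86 for miR-188-3p and miR-362-3p. By rank (Spearman's rho) these 3 pairs had 0.83, 0.60 and 0.83. Not all 3p pairs were positive by rank, as miR-362-3p had -0.20 with miR-532-3p and -0.09 with miR-501-3p, while the rest ran from 0.09 to 0.83. miR-362-5p stood apart from these, at -0.33 and -0.36 with the arms of miR-188, and went with miR-532-3p (0.76) and miR-500-5p (0.70). miR-532-5p had r = 0.91 with miR-501-5p and 0.85 with each arm of miR-188, whereas miR-532-3p had -0.02 and 0.10 with the arms of miR-188. The near copies miR-500-3p and miR-501-3p had r = 0.73, and a rho of 0.37 by rank.

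**Figure D5:**
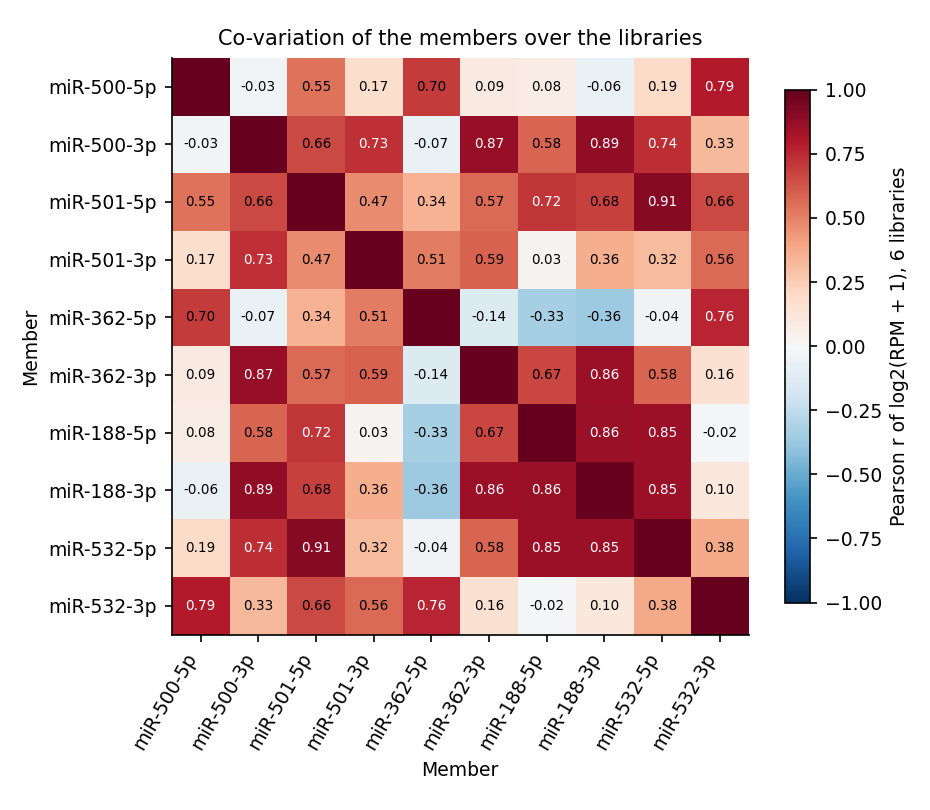
Pearson r of log2(RPM + 1) over 6 libraries for each pair of the 10 members, in genomic order, from blue (-1) to red (1). The 3p arms of miR-500, miR-362 and miR-188 form pairs at 0.86 to 0.89, and miR-362-5p has the lowest values, down to -0.36.

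The rows outside the cluster most like its mean standardised level, with identical rows counted once, were miR-30a-5p (r = 0.99 over 6 libraries), miR-34a-5p (0.95), miR-140-3p (0.95), miR-140-5p (0.94) and miR-185-5p (0.94). All 5 were at their lowest in GDE replicate 3. This follows from the selection, since the member profile they were picked on was itself lowest there (-1.12). Of all tested rows, 32.0% were lowest in that library. miR-30a-5p was at 582, 585 and 395 RPM in GDE and at 452 RPM or more in Control, and miR-185-5p at 206, 224 and 88.8 RPM in GDE and at 153 to 212 RPM in Control. None of the 5 passed the threshold in limma, with adjusted p from 0.901 to 0.995. The member profile overlapped between the groups (0.47, 0.78 and -1.12 in GDE, 0.06, -0.50 and 0.30 in Control). That rows picked for their likeness to it did not pass therefore adds nothing.

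Other miRNAs of chromosome X were set beside the cluster. Of 62 rows on the list, 41 were tested and 0 passed the threshold in limma. Their log2 folds were above 0 for 22 and below 0 for 19, around a median of 0.00. The 4 most abundant were miR-98-5p of the let-7 family with means of 2517 ± 139 (GDE) and 2900 ± 313 RPM (Control), miR-322-5p at 1506 ± 433 and 2065 ± 619 RPM, miR-652-3p at 1200 ± 121 and 1326 ± 231 RPM and miR-384-5p at 576 ± 43.4 and 650 ± 101 RPM.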

How the data were processed

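Small RNA from 3 GDE and 3 Control libraries was analysed, grouped by title. TRIzol served for RNA extraction and an MGIEasy small RNA kit for the libraries, per the labels' protocols. Bowtie2 and mm10 are named in the submitters' processing notes, without version or role; how reads were trimmed, or shared among several matching miRNAs, is not given in the sources used here. RPM were deposited by the authors, as inferred from the steps in the table because the header names only expression. All nonzero values were whole multiples of 1 step per library within 0.1 tags (100%), which gave the tags and the depth. A count of 0 allows up to 3 tags, about 0.25 RPM.

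The main test was limma 3.58.1 (R 4.3.3) with a trend on log2(RPM + 1), two-sided, over miRNAs of at least 1 RPM in 3 libraries, with a Benjamini-Hochberg threshold of 0.05. Folds on this scale understate changes of low miRNAs. Alternatives were edgeR 4.0.16, DESeq2 1.42.0 and limma-voom on the recovered tags, other pseudocounts, filters and scalings, a replicate block, and single libraries left out. The limma fit was tested on simulated data. Single values had an exact permutation test (scipy 1.17.1). Positions are from GENCODE M21 (GRCm38, called mm10) and sequences from RefSeq (GRCm38.p6). The rows named beside the members were the 5 with the highest r with the mean standardised member level, seed mates, and the 4 most abundant of a list of X chromosome miRNAs. The members and lists were chosen with earlier results of these data known. Nothing in the labels ties replicate numbers across groups, and deviations of same-numbered libraries had r of -0.03, -0.12 and -0.03.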

Additional observations from a re-analysis of the deposited data

How the results depend on the processing

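No member passed the threshold under any of the 16 alternatives. That held for limma with other pseudocounts, filters and scalings, with the replicate block (0 of 10 members) and without each library, and for edgeR, DESeq2 and limma-voom. The lowest adjusted p over all of them was 0.466, in limma for miR-532-5p without Control replicate 3, and the lowest was 0.728 in edgeR, 0.843 in DESeq2 and 0.66 in limma-voom. With at least 10 RPM in 3 libraries only 6 of the 10 members were tested. Of 156 member folds recomputed, 9 changed sign and none of them passed. Leaving out single libraries gave log2 folds of -0.05 to 0.22 for miR-188-5p, -0.17 to 0.09 for miR-188-3p, -0.01 to 0.12 for miR-362-5p, -0.42 to 0.03 for miR-500-3p and -0.43 to 0.03 for miR-501-3p. Those that kept their sign ran from -0.69 to -0.17 for miR-362-3p, 0.04 to 0.39 for miR-500-5p, 0.04 to 0.40 for miR-501-5p, 0.85 to 5.31 for miR-532-5p and 0.71 to 3.40 for miR-532-3p. With TMM factors the fold of miR-188-3p was 0.01. That of miR-532-5p was 2.62 in the main analysis, 2.70 in limma-voom, 0.84 in edgeR and 0.82 in DESeq2. Here limma and limma-voom compare means of log values, while edgeR and DESeq2 compare mean levels. For a row with so wide a spread these folds are different quantities. Over all rows 2 passed in the main analysis, 1 with at least 10 RPM in 3 libraries, where fewer rows were tested, and 7 in DESeq2, where the cause was not tested. Groups did not overlap for 95 rows, 175 with no filter and 48 with at least 10 RPM. The median r of members, 0.55, was 0.39 with equal table sums, 0.38 with TMM factors and 0.22 (without GDE replicate 3) to 0.73 (without Control replicate 3) as libraries were left out; the cause was not tested. The log2 ratio of the summed level was -0.06 without miR-532-5p and, in a setting added after the data were seen, -0.10 without both arms of miR-532. Minor strands with 19 to 118 tags a library limit what could be detected.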
